A study of Mus musculus with 8 samples.

Results

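The WNK kinases, their effector kinases and the ion carriers and channels that work with them in epithelia were followed in mouse pancreatic ductal adenocarcinoma (PDAC) cells. The set holds 9 genes of the 53465 counted, taken by gene name: the kinases *Wnk1*, *Wnk2* and *Wnk4*, the effector kinases *Stk39* and *Oxsr1*, the cotransporters *Slc12a2* and *Slc12a7*, and the channel genes *Scnn1a* and *Cftr*. Of these, 8 had enough counts to enter the fit over 14301 genes, and *Wnk2*, with 2 counts in all libraries together, did not. The 9 were picked with their levels in these same libraries in view. Their values and folds are therefore given as a description, without p-values of single members. Where a member is said to be called, or those past a threshold are counted, this only describes it, and nothing is read from it.

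RNA was sequenced from 8 libraries, 4 from each of the lines B73 and B87. Both lines were grown from primary pancreatic tumors of mice in which Ptf1a-Cre, active in the pancreatic lineage, switches on the transactivator rtTA3 with mKate2 from Rosa26, and in which doxycycline (Dox) then drives a GFP-linked hairpin against *Smad4* from Col1a1. Every library, controls included, carries these alleles, and which *Smad4* hairpin each line holds is not given in the sources used here. Smad4-off cells stayed on Dox, and Smad4-on cells had gone without it for 5 days before plating. From 24 h after plating, each state received for 24 h either 100 pM TGFβ1 or 2.5 µM SB505124, which blocks the TGFβ type I receptor kinase. Each of the 4 groups thus holds 2 libraries, 1 per line. No group was left untreated, so that TGFβ1 is compared with a blocked receptor. *Smad4*, the hairpin target, stood at 33.7 to 35.5 CPM (counts scaled to a common library total) in the Smad4-off libraries and at 97.3 to 117 CPM in the Smad4-on libraries. It was 3.31-fold higher in Smad4-on cells under TGFβ1 (edgeR adjusted p = 0.00084) and 3.08-fold higher under SB505124 (edgeR adjusted p = 0.00234).

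WNK kinases sense chloride and cell volume. They phosphorylate and activate the effector kinases SPAK (*Stk39*) and OSR1 (*Oxsr1*), which in turn switch on the chloride importer NKCC1 (*Slc12a2*) and switch off the potassium-chloride exporters, KCC4 (*Slc12a7*) among them. In pancreatic ducts, chloride taken up at the base of the cell leaves at the lumen through CFTR, together with bicarbonate and water, and the epithelial sodium channel ENaC, whose alpha subunit is *Scnn1a*, takes sodium back up in many absorbing epithelia.

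All 9 genes are protein coding. On GRCm38, *Wnk4* occupies chr11:101260567-101277409 on the plus strand, *Cftr* chr6:18170687-18322768 on the plus strand, *Scnn1a* chr6:125320659-125344943 on the plus strand and *Wnk1* chr6:119923969-120038672 on the minus strand. The promoters of the 2 members called lower with TGFβ1 in both *Smad4* states and that of *Wnk1*, the kinase with the opposite direction, are given here from RefSeq (GRCm38.p6), from 250 bases before to 50 bases after the start and on the strand of the gene. The *Wnk4* window is chr11:101260317-101260616, the *Cftr* window chr6:18170437-18170736 and the *Wnk1* window chr6:120038606-120038905. Capitals mark the letters CAGAC, the core of the SMAD box, or their reverse complement.
Wnk4: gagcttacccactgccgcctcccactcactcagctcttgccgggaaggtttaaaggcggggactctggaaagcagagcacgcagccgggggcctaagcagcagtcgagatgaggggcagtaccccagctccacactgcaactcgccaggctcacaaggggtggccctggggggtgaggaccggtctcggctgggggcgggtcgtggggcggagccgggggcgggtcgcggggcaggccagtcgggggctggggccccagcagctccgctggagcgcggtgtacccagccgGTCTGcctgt
Cftr: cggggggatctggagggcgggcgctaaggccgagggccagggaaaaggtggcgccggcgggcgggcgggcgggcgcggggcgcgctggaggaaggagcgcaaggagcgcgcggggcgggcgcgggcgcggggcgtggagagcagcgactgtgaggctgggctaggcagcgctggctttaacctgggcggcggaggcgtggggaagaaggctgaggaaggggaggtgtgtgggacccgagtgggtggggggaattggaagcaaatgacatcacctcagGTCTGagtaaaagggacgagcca
Wnk1: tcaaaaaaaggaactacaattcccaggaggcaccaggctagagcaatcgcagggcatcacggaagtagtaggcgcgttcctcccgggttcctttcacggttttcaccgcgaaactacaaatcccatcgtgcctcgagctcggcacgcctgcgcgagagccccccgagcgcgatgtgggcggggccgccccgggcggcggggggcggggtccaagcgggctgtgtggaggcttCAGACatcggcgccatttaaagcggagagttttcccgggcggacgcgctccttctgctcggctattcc
Each of the 3 windows holds these letters 1 time, at position 41 from the start in *Wnk4*, at 28 in *Cftr* and at -18 in *Wnk1*, counting on the strand of the gene. The same letters stand on either strand in 49.6% of 32851 RefSeq promoter windows of this length. None of the 3 windows holds the E-box CAGGTG (20.2% of all windows) or the AP-1 site TGANTCA (7.8%). Promoter windows were examined for 7 of the 9 genes, *Slc12a2* and *Scnn1a* not among them.

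Levels are given as CPM after TMM scaling, and as CPM per kilobase of exon where genes are set against each other. Averaged over the 8 libraries, the level per kilobase was 56.6 for *Slc12a2*, 34.0 for *Oxsr1*, 31.7 for *Wnk1*, 11.4 for *Slc12a7*, 7.42 for *Wnk4*, 4.37 for *Stk39*, 1.04 for *Cftr* and 0.616 for *Scnn1a*. The ranges over libraries of the first 3 genes overlapped (27.4 to 89.0, 27.3 to 46.5 and 20.8 to 54.2 CPM per kilobase), so their order is not fixed. The place of *Slc12a2* also hangs on its length, which is 6520 bases in the deposited table and 10920 bases of exon in GENCODE M21. With the longer length its average was 33.8 CPM per kilobase. The place of *Wnk1* rests on 22825 bases, the merged exons of 26 transcripts. *Slc12a7* (8.48 to 16.2), *Wnk4* (0.344 to 16.7) and *Stk39* (2.95 to 6.64) overlapped in the middle of the order, as *Cftr* (0.059 to 3.24) and *Scnn1a* (0.148 to 1.61) did at its lower end. *Wnk2* had 1 count in each of the Smad4-off B87 libraries and none in the other 6, below the 3 counts (0.125 to 0.162 CPM) taken as the least detectable level.

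**Figure D1:**
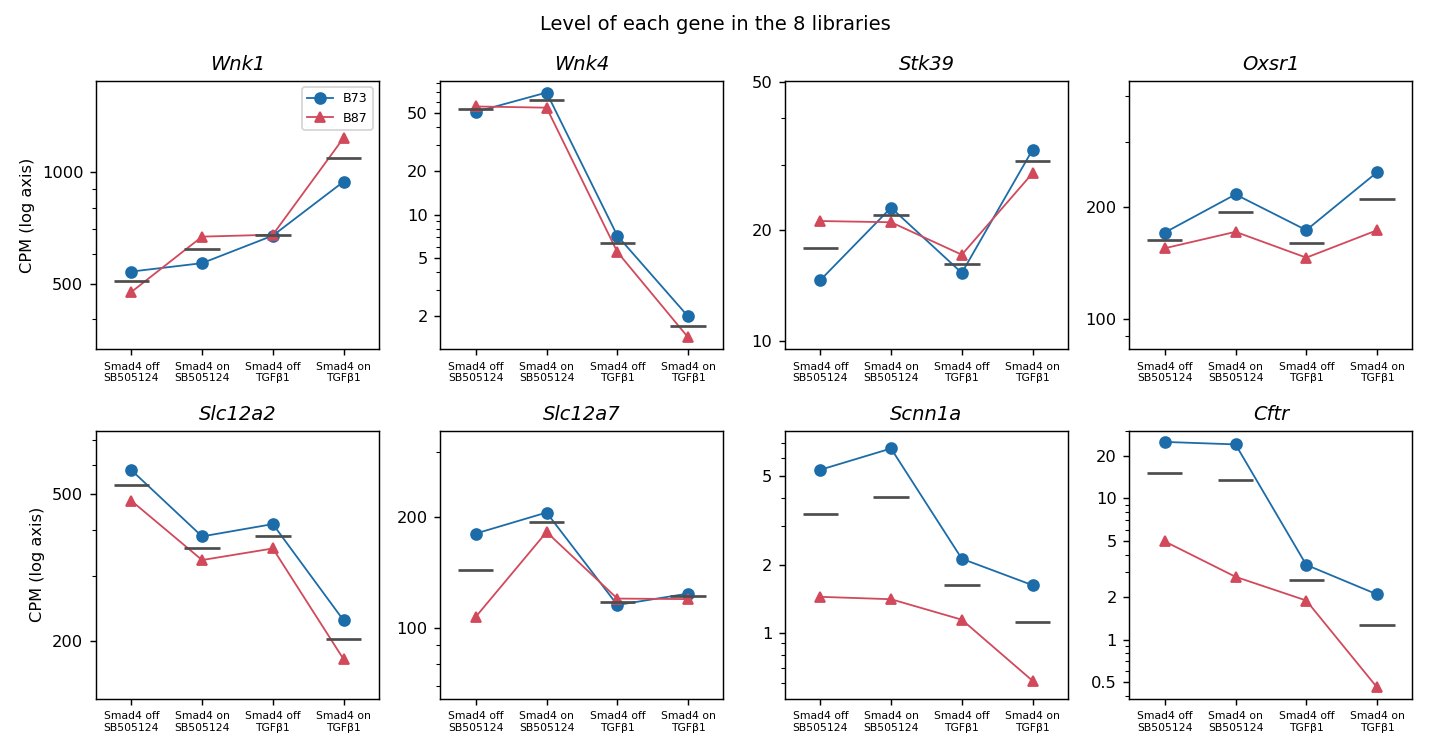
CPM of the 8 measurable genes on log axes, each panel with its own range, in the 4 groups. Circles are B73 and triangles B87, lines join the libraries of 1 cell line, and short bars are group means (n = 2). *Wnk4* is at 51.0 to 69.3 CPM in the SB505124 libraries and at 1.43 to 7.15 CPM in the TGFβ1 libraries, while *Oxsr1* stays between 146 and 249 CPM.

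*Wnk4*, a kinase best known for setting salt transport in the distal nephron, had the widest range of group means. Under SB505124 it stood at 51.0 CPM (B73) and 55.5 CPM (B87) in Smad4-off cells and at 69.3 CPM (B73) and 54.5 CPM (B87) in Smad4-on cells. Under TGFβ1 it stood at 7.15 CPM (B73) and 5.53 CPM (B87) in Smad4-off cells and at 1.99 CPM (B73) and 1.43 CPM (B87) in Smad4-on cells. The 4 SB505124 libraries thus lay above the 4 TGFβ1 libraries, and among the latter the Smad4-off pair lay above the Smad4-on pair. The lowest of these values rest on 39 and 28 counts, well over the floor of 3.

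With TGFβ1 against SB505124, *Wnk4* fell 36.1-fold in Smad4-on cells, a log2 change of -5.17 ± 0.19 (SE, n = 2 per group) with -5.06 in B73 and -5.17 in B87. In Smad4-off cells it fell 8.48-fold, a log2 change of -3.08 ± 0.16, with -2.82 in B73 and -3.31 in B87. *Smad4* state alone left it at similar levels under SB505124, with a log2 difference of 0.20 ± 0.14 and opposite signs in the lines (0.44 in B73 and -0.03 in B87). Under TGFβ1 its level in Smad4-on cells was 3.71-fold below that in Smad4-off cells, with log2 differences of -1.80 in B73 and -1.89 in B87, a call that was lost in edgeR without the line as a term. The change with TGFβ1 was larger in Smad4-on cells by -2.09 ± 0.25 on the log2 scale, with -2.24 in B73 and -1.86 in B87. This difference of differences passed the call rule with all 8 libraries and in 6 of 14 alternative analyses. It missed the rule in edgeR without the line as a term, and also when any 1 library was left out, the Smad4-off B87 library under SB505124 excepted, while the log2 value stayed between -2.36 and -1.85 over the 14.

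*Wnk1*, the broadly expressed WNK kinase, had the opposite direction. It stood at 539 CPM (B73) and 474 CPM (B87) in Smad4-off cells under SB505124 and at 568 CPM (B73) and 669 CPM (B87) in Smad4-on cells. With TGFβ1 it reached 674 CPM (B73) and 678 CPM (B87) in Smad4-off cells and 943 CPM (B73) and 1237 CPM (B87) in Smad4-on cells. The Smad4-on TGFβ1 libraries were the highest in each line. The other 3 groups spanned 539 to 674 CPM in B73 and 474 to 678 CPM in B87. The log2 difference between TGFβ1 and SB505124 was 0.81 ± 0.14 in Smad4-on cells and 0.41 ± 0.14 in Smad4-off cells, both under the 2-fold limit.

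Per kilobase of merged exon, *Wnk4* thereby went from a sizeable part of the summed level of these 2 kinases to a trace. Its share of the summed *Wnk1* and *Wnk4* level was 36.7% ± 3.49 (SD, n = 2) in Smad4-off and 35.6% ± 6.53 in Smad4-on cells under SB505124. Under TGFβ1 the share was 4.91% ± 0.86 in Smad4-off and 0.89% ± 0.37 in Smad4-on cells. These shares are of the 2 kinases alone. They also hang on the lengths, 22825 bases for *Wnk1* and 4148 for *Wnk4*, which merge the exons of 26 and 5 transcripts. Without a length, mean levels in Smad4-off cells under SB505124 were 507 CPM for *Wnk1* and 53.3 CPM for *Wnk4*. The fourth WNK kinase, *Wnk3*, which was not a member of the set, had 2 to 13 counts in B73 and 35 to 60 in B87, and was called higher in B87 (log2 difference 2.83 ± 0.31, edgeR adjusted p = 0.00135).

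**Figure D2:**
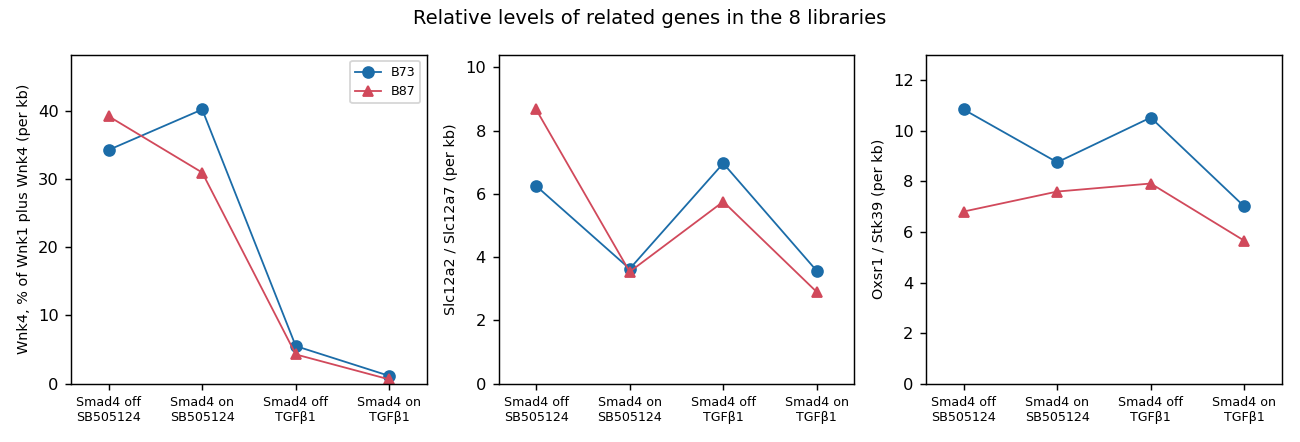
Ratios of levels per kilobase in each library, by group, on linear axes that start at 0: *Wnk4* as a percent of *Wnk1* plus *Wnk4*, *Slc12a2* over *Slc12a7*, and *Oxsr1* over *Stk39*. Circles are B73 and triangles B87. The *Wnk4* share is 30.9% to 40.2% in the SB505124 libraries and 0.63% to 5.52% in the TGFβ1 libraries, and *Slc12a2* over *Slc12a7*, drawn with the lengths of the deposited table, is lower in both Smad4-on groups.

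The effector kinases differed less between conditions than *Wnk4* did. *Stk39* stood at 14.6 CPM (B73) and 21.1 CPM (B87) in Smad4-off cells under SB505124 and at 22.9 CPM and 20.9 CPM in Smad4-on cells. Under TGFβ1 it stood at 15.3 CPM (B73) and 17.1 CPM (B87) in Smad4-off cells and at 32.9 CPM and 28.4 CPM in Smad4-on cells, the highest of the 4 groups in both lines. The log2 difference between *Smad4* states under TGFβ1 was 0.93 ± 0.19, with 1.10 in B73 and 0.73 in B87, under the 2-fold limit in the fit. *Oxsr1* ranged from 146 to 249 CPM, a 1.70-fold span over all libraries, and its log2 differences between conditions lay between -0.03 and 0.39. Per kilobase *Oxsr1* was the more abundant effector in every library, at 5.65 to 10.8 times the level of *Stk39*, and the ratio was lowest in the Smad4-on TGFβ1 group (6.33 ± 0.96, SD, n = 2).

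Among the cotransporters, *Slc12a2* (NKCC1) was lower with TGFβ1 and lower with *Smad4* on. Smad4-off cells held 580 CPM (B73) and 480 CPM (B87) under SB505124, with 415 CPM and 356 CPM under TGFβ1. Smad4-on cells held 384 CPM (B73) and 332 CPM (B87) under SB505124, with 228 CPM and 179 CPM under TGFβ1. The Smad4-off SB505124 pair was highest and the Smad4-on TGFβ1 pair lowest, with no overlap of either with another group. The log2 differences were -0.82 ± 0.08 and -0.46 ± 0.08 for TGFβ1 in Smad4-on and Smad4-off cells, and -0.93 ± 0.08 and -0.56 ± 0.08 for *Smad4* under TGFβ1 and SB505124. None of the 4 exceeded 2-fold, and each had the same sign in both lines.

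*Slc12a7* (KCC4), the exporter, did not share this pattern. It stood at 180 CPM (B73) and 108 CPM (B87) in Smad4-off cells under SB505124, and at 206 CPM and 182 CPM in Smad4-on cells. The 4 TGFβ1 libraries lay within 116 to 124 CPM. The log2 difference with TGFβ1 was -0.66 ± 0.18 in Smad4-on cells, where both lines had the same sign. In Smad4-off cells it was -0.26 ± 0.18, with -0.64 in B73 and 0.16 in B87. Per kilobase, *Slc12a2* over *Slc12a7* was 7.46 ± 1.71 and 6.36 ± 0.86 (SD, n = 2) in the Smad4-off groups under SB505124 and TGFβ1, and 3.58 ± 0.07 and 3.23 ± 0.47 in the Smad4-on groups. These ratios take the deposited length of *Slc12a2*. With the GENCODE length they were 4.45 ± 1.02 and 3.80 ± 0.51 in the Smad4-off groups and 2.14 ± 0.04 and 1.93 ± 0.28 in the Smad4-on groups.

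*Cftr*, the chloride and bicarbonate channel of the duct lumen, fell with TGFβ1 and differed strongly between lines. In B73 it stood at 25.1 CPM (Smad4 off) and 24.1 CPM (Smad4 on) under SB505124 and at 3.38 CPM and 2.09 CPM under TGFβ1. In B87 the same 4 values were 4.96, 2.79, 1.89 and 0.459 CPM, the last of them from 9 counts. Each line was lower with TGFβ1 in both *Smad4* states, and within a *Smad4* state the pairs did not overlap, though the B87 levels under SB505124 lay close to the B73 levels under TGFβ1. The log2 change with TGFβ1 was -3.18 ± 0.52 in Smad4-on cells (-3.47 in B73 and -2.38 in B87), and -2.21 ± 0.47 in Smad4-off cells (-2.86 and -1.35). The Smad4-off call was lost without the Smad4-off B73 library under SB505124 or under TGFβ1 (log2 changes -2.08 and -1.23), without the Smad4-off B87 library under SB505124 (-2.30), and both calls were lost in edgeR without the line as a term. The log2 difference between *Smad4* states was -1.31 ± 0.57 under TGFβ1 and -0.34 ± 0.41 under SB505124, neither of them called.

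*Scnn1a* was scarce. It stood at 5.34 CPM (Smad4 off) and 6.64 CPM (Smad4 on) under SB505124 and at 2.14 CPM and 1.63 CPM under TGFβ1 in B73. In B87 it stood at 1.45, 1.41, 1.15 and 0.611 CPM in the same order, the last from 12 counts. The Smad4-on log2 change with TGFβ1 was -1.70 ± 0.37, with -1.96 in B73 and -1.09 in B87, and it was called. Without the Smad4-on B73 library under SB505124 it was -1.21, and without that under TGFβ1 -1.51, and neither was called, nor was the fit without the line as a term. The pairs under TGFβ1 and SB505124 overlapped in both *Smad4* states, because B87 held little under either treatment. In Smad4-off cells the log2 difference was -0.89 ± 0.35 and was not called. The other ENaC subunits were absent or nearly so, with at most 1 count for *Scnn1b* and 0 for *Scnn1g* in any library, so that neither was detectable at this depth.

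**Figure D3:**
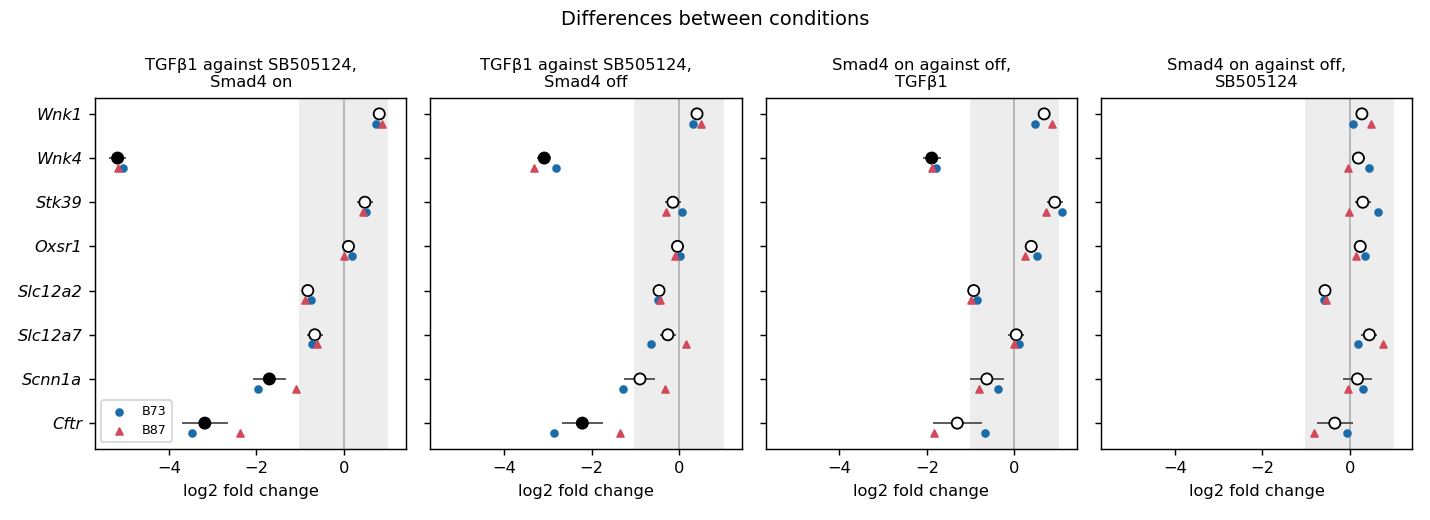
Log2 fold changes of the 8 measurable genes in 4 comparisons. Large circles are the fit over both lines with its standard error, filled where the gene was called, and small circles (B73) and triangles (B87) are the changes within each line; the grey band spans a 2-fold change in either direction. *Wnk4*, *Cftr* and *Scnn1a* lie left of the band with TGFβ1 in Smad4-on cells, and no gene is called between *Smad4* states under SB505124.

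In counts, 3 of the 8 measured genes were called lower and 0 higher with TGFβ1 in Smad4-on cells, where 8.31% of all tested genes were called lower and 5.62% higher. In Smad4-off cells 2 were called lower and 0 higher, against 2.82% and 3.11% of all genes. Between *Smad4* states under TGFβ1, 1 was called lower and 0 higher (1.8% and 1.31% of all genes). Under SB505124, 0 were called either way by edgeR (0.455% of all genes lower and 0.636% higher), 2 had an unadjusted p under 0.05, and DESeq2 called 0. In the test of whether the TGFβ1 change differed between *Smad4* states, 1 was called lower and 0 higher, against 0.133% and 0.0559% of all genes. The median log2 change of the 8 genes with TGFβ1 was -0.74 with *Smad4* on and -0.36 with *Smad4* off, beside -0.02 for all tested genes in both. The comparisons share libraries and the genes were chosen on them, so these counts carry no weight of their own. As these are bulk libraries, fewer cells that express a gene and less of its RNA in each cell cannot be told apart.

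Between lines, averaged over the 4 conditions, *Cftr* and *Scnn1a* were called lower in B87, by log2 differences of -2.21 ± 0.35 and -1.66 ± 0.26. In each of the 4 conditions both genes were lower in B87, with *Cftr* between -3.07 and -0.81 and *Scnn1a* between -2.16 and -0.85 on the log2 scale. They are 2 of the 8 genes, and 4.5% of all tested genes were called lower in B87 and 3.87% higher. *Wnk1*, *Wnk4*, *Stk39* and *Slc12a7* differed between lines by 0.23 or less on the log2 scale, none of them called. *Oxsr1* (-0.31 ± 0.07) and *Slc12a2* (-0.26 ± 0.06) were lower in B87 by well under 2-fold.

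The lines also differed in cell type markers. The summed level of 7 duct markers was 3941 to 6203 CPM in B73 and 1217 to 2107 CPM in B87, with *Krt7* (log2 difference -4.87 ± 0.23), *Krt8* (-2.51 ± 0.29), *Cdh1* (-2.06 ± 0.33) and *Krt18* (-1.10 ± 0.21) called lower in B87. Of the 7, 6 were above the floor in every library and *Epcam* was near it, at 0.153 to 2.11 CPM. The summed level of 4 fibroblast markers was 1.24 to 5.87 CPM in B73 and 30.9 to 630 CPM in B87, most of it *Col1a1* in B87 (25.9 to 627 CPM), with *Lum* at 0 in every library. In B73 under SB505124, *Pdgfra* (0.648 and 0.898 CPM) was above *Col1a1* (0.349 and 0.594 CPM). Of 4 acinar markers 3 were at 0 in every library, and 3 immune markers summed to 1.33 to 6.28 CPM with *Cd3e* at 0. The 3 endothelial markers summed to 0.648 to 26.0 CPM. With TGFβ1 in Smad4-on cells, the duct keratin *Krt19* (log2 change -2.33 ± 0.22, edgeR adjusted p = 0.000454) and E-cadherin *Cdh1* (-2.31 ± 0.46, edgeR adjusted p = 0.00936) fell, as did *Wnk4*, *Cftr* and *Scnn1a*. The rest of the duct markers did not fall as a set. *Krt8* (0.20), *Krt18* (0.52) and *Sox9* (0.74) were higher, *Krt7* (-0.19) and *Epcam* (-0.39) were lower, and none of them was called. The calls of *Krt19* and *Cdh1* were lost in edgeR without the line as a term (adjusted p = 0.0568 and 0.295), and that of *Cdh1* without the Smad4-on B73 library under SB505124 (-1.91). In the same comparison *Col1a1* (2.43 ± 0.22, edgeR adjusted p = 0.000409, and 0.638 without the line as a term) and the endothelial marker *Cdh5* (3.79 ± 0.50, edgeR adjusted p = 0.00177), the latter at 0.162 and 0.166 CPM under SB505124 and 2.75 and 2.04 CPM under TGFβ1, were called higher. In Smad4-off cells *Krt19* was called lower (-1.46 ± 0.21, edgeR adjusted p = 0.0067), and *Col1a1* (2.73 ± 0.25, edgeR adjusted p = 0.00154), *Kdr* (2.02 ± 0.28, edgeR adjusted p = 0.00615) and *Cdh5* were called higher, the last at 0.0997 and 0 CPM under SB505124 and 0.985 and 0.796 CPM under TGFβ1. In edgeR these 4 calls were lost without the line as a term. The calls of *Krt19* (-1.16), *Kdr* (1.98) and *Cdh5* were also lost without the Smad4-off B87 library under TGFβ1, that of *Cdh5* without the B73 one, and that of *Col1a1* without the Smad4-off B87 library under SB505124 (2.17). The part of these markers in the results on ion transport genes was not tested.

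The rest of the pathway was read from 48 further genes, none of them members, of which 37 were tested in the fit over all genes. With TGFβ1 in Smad4-on cells, 4 rose and 6 fell by the call rule, where 5.62% of all tested genes were called higher and 8.31% lower. The median log2 change of the 37 was -0.17, beside -0.02 for all tested genes. Those that rose were *Sgk1*, a kinase of the PI3K pathway that raises ENaC at the membrane (1.54 ± 0.13, edgeR adjusted p = 0.000295), *Furin*, a protease that activates ENaC (1.33 ± 0.09, edgeR adjusted p = 0.000181), the sodium pump regulator *Fxyd5* (1.32 ± 0.09, edgeR adjusted p = 0.000158) and *Lrrc8c*, a subunit of volume-regulated anion channels (1.18 ± 0.09, edgeR adjusted p = 0.000202). *Sgk1* went from 39.2 CPM (B73) and 104 CPM (B87) to 127 CPM and 273 CPM, and was called higher in B87 than in B73 over the 4 conditions (1.19 ± 0.09, edgeR adjusted p = 0.000286). Without the line as a term the edgeR calls of *Sgk1* (adjusted p = 0.206) and *Lrrc8c* (adjusted p = 0.0796) were lost.

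The genes that fell were water channels and genes of chloride transport. Not all chloride genes fell, and several changed by less than 2-fold at an edgeR adjusted p under 0.05. Of these, the chloride channel *Ano1* (0.83 ± 0.13), *Lrrc8a* (0.74 ± 0.12), *Lrrc8b* (0.38 ± 0.10) and the cotransporter *Slc12a4* (0.66 ± 0.08) were higher. *Lrrc8d* (-0.31 ± 0.08) and *Lrrc8e* (-0.83 ± 0.23) were lower. *Aqp1*, a water channel, fell from 21.1 CPM (B73) and 21.4 CPM (B87) to 2.81 and 0.866 CPM (-3.73 ± 0.57, edgeR adjusted p = 0.00319). *Aqp5*, another water channel of secretory epithelia, fell from 94.0 CPM (B73) and 60.8 CPM (B87) to 14.3 and 16.7 CPM (-2.38 ± 0.42, edgeR adjusted p = 0.00561). *Clcn2*, a chloride channel, fell from 68.7 CPM (B73) and 28.8 CPM (B87) to 17.9 and 10.9 CPM (-1.69 ± 0.16, edgeR adjusted p = 0.000544, and 0.0751 without the line as a term). In all 3 genes both lines were lower with TGFβ1 and the pairs did not overlap.

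The other 3 were scarce or uneven. *Slc12a1*, the kidney importer NKCC2, fell from 2.43 CPM (B73) and 0.873 CPM (B87) to 0.663 and 0.306 CPM (-1.70 ± 0.49, edgeR adjusted p = 0.0361, 0.00311 to 0.236 over the alternatives). It was also the only gene of the 37 called between *Smad4* states under TGFβ1, where 1.31% of all tested genes were called higher and 1.8% lower. Smad4-off cells under TGFβ1 held 4.20 CPM (B73) and 2.74 CPM (B87) of it, and its log2 change with *Smad4* on was -2.84 ± 0.46 (edgeR adjusted p = 0.0173, 8.81e-06 to 0.16 over the alternatives). That call was lost when any 1 of the 4 TGFβ1 libraries was left out (log2 changes -3.17 to -2.62). The call with TGFβ1 was lost in the same 4 fits (-2.04 to -1.49) and without the Smad4-on B73 library under SB505124 (-1.04). In edgeR without the line as a term, *Slc12a1* lost both calls (adjusted p = 0.112 with TGFβ1 and 0.16 between *Smad4* states). *Clca1*, which modulates a calcium-activated chloride channel, was at 43.5 CPM (SB505124) and 1.68 CPM (TGFβ1) in B73, and at 2.20 and 1.02 CPM in B87 (-3.39 ± 0.95, edgeR adjusted p = 0.0331, and 0.146 without the line as a term). It was called lower in B87 over the 4 conditions (-2.57 ± 0.69, edgeR adjusted p = 0.0432). Its call with TGFβ1 was lost without the Smad4-on B73 library under SB505124 (-1.60) or TGFβ1 (-1.95), and its line call when any 1 of the 4 SB505124 libraries was left out (-2.30 to -1.60). *Slc26a9*, an anion channel of secretory epithelia, had 4 counts (B73) and 29 counts (B87) with SB505124 and 0 in both libraries with TGFβ1, at least 4.65-fold lower for the group mean against a floor of 3 counts per library. The edgeR call of *Slc26a9* (adjusted p = 0.0143) was lost without the line as a term (adjusted p = 0.081) and without either Smad4-on B87 library.

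**Figure D4:**
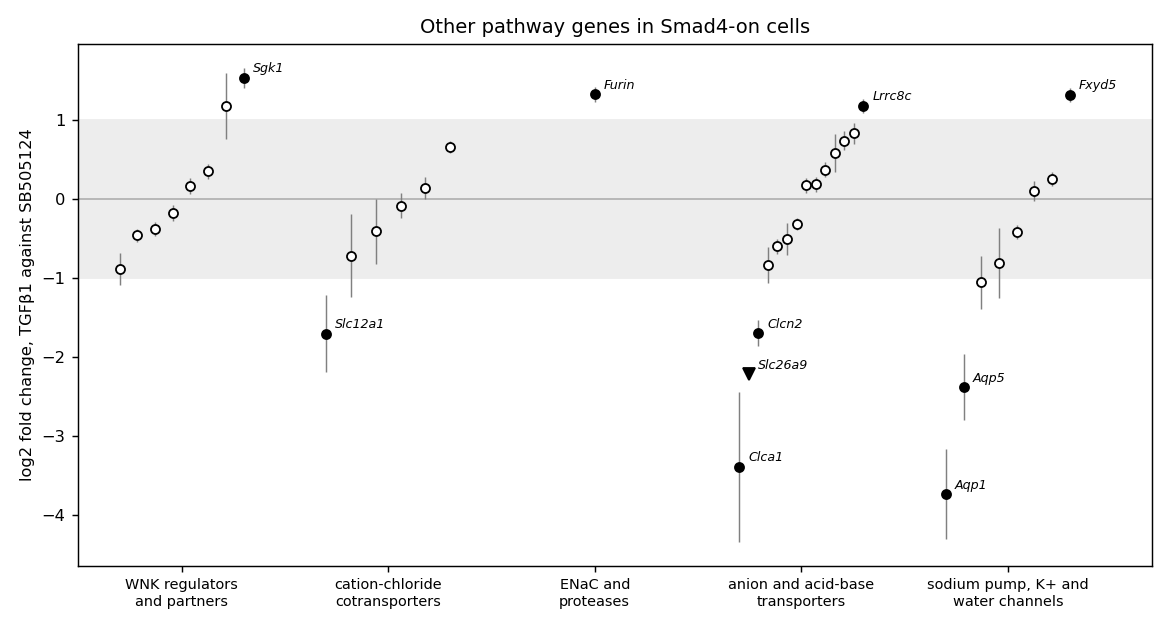
Log2 fold change with TGFβ1 in Smad4-on cells of the 37 tested pathway genes that are not members, by list. Bars are standard errors, filled symbols are called genes with their names, the triangle shows the bound for *Slc26a9* (the true change may lie lower), and the grey band spans a 2-fold change. *Sgk1*, *Furin*, *Lrrc8c* and *Fxyd5* lie above the band, and 6 named genes lie below it.

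In Smad4-off cells, edgeR called 3 of the 37 genes higher and 0 lower with TGFβ1. An unadjusted p under 0.05 was found for 18, and DESeq2 called 6 either way. Of all tested genes, edgeR called 3.11% higher and 2.82% lower here. *Fxyd5* (1.29 ± 0.09, edgeR adjusted p = 0.000662) and *Sgk1* (1.05 ± 0.13, edgeR adjusted p = 0.00358) rose here too. The third was *Slc4a4*, the sodium-bicarbonate importer of duct cells, which went from 32.3 CPM (B73) and 19.1 CPM (B87) to 53.1 and 57.9 CPM (1.16 ± 0.24, edgeR adjusted p = 0.0238). Without the Smad4-off B87 library under SB505124 or under TGFβ1, *Sgk1* (0.88 and 0.97) and *Slc4a4* (0.89 and 0.86) were no longer called. In edgeR without the line as a term, the calls of *Sgk1* (adjusted p = 0.473) and *Slc4a4* (adjusted p = 0.157) were lost too. Of the genes that fell in Smad4-on cells, *Aqp5* (-1.52 ± 0.40), *Aqp1* (-1.43 ± 0.49) and *Clcn2* (-0.71 ± 0.16) were lower here in both lines, though not called. *Slc12a1* (-0.28), *Clca1* (-1.28) and *Slc26a9* (-0.95) had opposite signs in the lines. *Furin* (0.99 ± 0.09, edgeR adjusted p = 0.00156) and *Lrrc8c* (0.77 ± 0.09, edgeR adjusted p = 0.00273) were higher by less than 2-fold. Whether *Smad4* state changed the TGFβ1 response was tested by the interaction, which called 0 of the 37 genes in edgeR and DESeq2, with 7 at an unadjusted p under 0.05. Among all tested genes the interaction called only 0.0559% higher and 0.133% lower in edgeR. Between *Smad4* states under SB505124, 0 of the 37 were called by either tool, with 10 at an unadjusted p under 0.05. Of all tested genes, edgeR called 0.636% higher and 0.455% lower there. *Fxyd5* was higher with *Smad4* on at an edgeR adjusted p of 0.0136, though by less than 2-fold. Its log2 difference was 0.76 ± 0.09, with 0.866 in B73 and 0.655 in B87.

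By list, with TGFβ1 in Smad4-on cells, 1 of 8 tested WNK regulators and partners rose and 0 fell, and 0 of 6 cation-chloride cotransporters rose and 1 fell. Of 14 tested anion channels and acid-base transporters 1 rose and 3 fell, and of 8 sodium pump subunits, potassium channels and water channels 1 rose and 2 fell. Of the ENaC subunits and proteases, *Furin* alone was tested. Of all tested genes 5.62% were called higher and 8.31% lower, and nothing is read from counts in lists this small. The adaptors that mark WNK kinases for degradation differed in abundance. *Klhl3*, the adaptor of the kidney, had at most 3 counts in any library and was not tested, while *Klhl2* stood at 54.0 to 69.0 CPM and the ligase scaffold *Cul3* at 163 to 217 CPM, and neither was called in any comparison. *Slc12a8*, a solute carrier of the same family as the cotransporters, was called higher in B87 (log2 difference 2.31 ± 0.37, edgeR adjusted p = 0.00638), at 1.53 to 4.17 CPM against 0.204 to 0.898 CPM in B73.

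The 75-base stretches of the transcripts of each of the 9 genes had no exact match in transcripts of another gene, and matches with mismatches were not examined. On the opposite strand, *Gm11615* overlaps 306 exonic bases of *Wnk4* (7.4%) and *Gm15592* 129 bases of *Cftr* (1.7%). These partners had at most 16 and 3 counts in any library.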

How the data were processed

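RNA from 8 libraries was sequenced by the authors, who prepared stranded poly(A) libraries and read them as 75-base single ends. Per the labels, the submitters' processing notes name FastQC 0.11.5, Trimmomatic 0.36, STAR 2.5.3a and featureCounts 1.6.3, and the build was GRCm38. The authors deposited raw counts per gene without normalization or pooling. How featureCounts treated strand and reads that fit several genes is not given in the sources used here. Totals were 18389235 to 23440550 counts per library, and the 10 most abundant genes took 4.32% to 5.63% of them. The floor of 3 counts, 0.125 to 0.162 CPM, covers counting error only. Gene positions overlapped those of GENCODE M21 on the same chromosome for 99.92% of the genes listed there.

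Counts were tested with edgeR 4.0.16 in R 4.3.3 (TMM scaling, filterByExpr, quasi-likelihood F-test), with all 8 libraries in 1 model of 4 groups and the cell line. A call needed an adjusted p (Benjamini-Hochberg over the 14301 genes tested) under 0.05 and a change over 2-fold, the limits the study used. Standard errors were taken as the log2 change over the square root of F, and changes within a line from log2 CPM (prior count 2). The study used DESeq2 and names no covariate. The line was added here since both lines passed through all 4 conditions: deviations of the lines from the group means correlated between groups by 0.642 to 0.774 (median 0.758, 6 pairs), a pairing that comes from the line named in each title. Each line gave 1 library per condition, so p-values measure the spread between these libraries and the 2 lines only.

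The members, the 5 pathway lists and the tests were chosen with earlier results of these data known. Named genes were the 9 members, *Smad4*, every other listed gene that was called, the partners of members named in the text, and the 5 genes most like the member with the widest range. Chloride genes that changed by less than 2-fold were named beside those that fell. The tests were repeated with the size factors of DESeq2, with DESeq2 1.42.0 in place of edgeR (line in or out), without the line in edgeR, with no filter or a minimum of 10 counts per library, with no fold rule, and with each library left out in turn. Scripts were tested on simulated counts. Of the genotype, 1 item is not reported here.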

Additional observations from a re-analysis of the deposited data

Results flagged for a closer look

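The change of *Wnk4* with TGFβ1 differed between *Smad4* states, with a log2 difference of -2.09 ± 0.25 (SE) by the interaction term, and both lines had this sign (-2.24 in B73 and -1.86 in B87). *Wnk4* fell in both states, and it fell further in Smad4-on cells. The difference passed the call rule with all 8 libraries but in only 6 of 14 alternative analyses. Over the 14, its log2 value stayed between -2.36 and -1.85. The members were chosen on these libraries, so the value is a description.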

How the results depend on the processing

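No alternative turned the direction of a member's called change, and of 650 member log2 changes recomputed, 63 moved by at least 1 SD between the lines. *Wnk4* was called lower with TGFβ1 in all 14 alternatives in both *Smad4* states, and *Cftr* and *Scnn1a* were called lower in B87 in every alternative that tested them. Low counts limit *Cftr* and *Scnn1a* in B87, and with at least 10 counts in every library *Cftr* was not tested.

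Without the line (no replicate block), edgeR called 1 member with TGFβ1 in Smad4-on cells, 1 in Smad4-off cells, 0 between *Smad4* states under TGFβ1 and 0 in the interaction. The other pathway genes called without the replicate block were 4, 1 and 0 in the first 3 of these. DESeq2 without the block called 1 member with TGFβ1 in Smad4-off cells. DESeq2 with the line called 6 pathway genes with TGFβ1 in Smad4-off cells and 2 between *Smad4* states under TGFβ1. Without a filter, 2 members were called between *Smad4* states under TGFβ1, and the pathway genes called were 6 with TGFβ1 in Smad4-off cells, 2 between *Smad4* states under TGFβ1, 2 under SB505124 and 1 in the interaction. With at least 10 counts in every library, 1 member was called with TGFβ1 in Smad4-off cells and 1 between lines, and 0 pathway genes were called between *Smad4* states under TGFβ1 and 2 between lines, from fewer genes tested. Without the fold rule, members called were 6 and 4 with TGFβ1 (Smad4-on cells) and between *Smad4* states under TGFβ1, 1 under SB505124 and 4 between lines, and pathway genes were 22 and 11 with TGFβ1 (Smad4 on and off), 5 and 1 between *Smad4* states (TGFβ1 and SB505124) and 13 between lines. Leaving out each library in turn gave 1 to 2 members with TGFβ1 in Smad4-off cells and 0 to 1 in the interaction, and 1 to 6 pathway genes with TGFβ1 in Smad4-off cells, 0 to 1 between *Smad4* states under TGFβ1 and 0 to 1 under SB505124. A fit without a library leaves its group with 1, assumed to vary like the others. The share of all tested genes called under each alternative is not given here, so these counts compare settings and say nothing about the members or the pathway against other genes. Apart from the filters and left-out libraries, the cause was not tested.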

Other observations

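*Wnk4*, the member with the widest range of group means, was set beside 11100 genes with a mean log2 CPM of at least 1. The 5 whose log2 CPM followed it most closely over the 8 libraries were *Cyb5a* (Pearson r = 0.9974), *Tspan5* (0.9969), *Keap1* (0.996), *Brd9* (0.9957) and *Bicd1* (0.9944). The 8 libraries fall into the same 4 groups for every gene and share 2 lines, so these values describe likeness and carry no test. The ranges were far narrower than that of *Wnk4*. Mean *Cyb5a* was 200 and 204 CPM under SB505124 (Smad4 off and on) and 91.2 and 54.8 CPM under TGFβ1, and mean *Keap1* was 61.6 and 65.0 CPM against 46.0 and 39.4 CPM.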
